A study of Drosophila melanogaster with 2 samples.

Results

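The genes for mitochondrial ribosomal proteins were examined in a map of where CG10959 was crosslinked to DNA in the fly embryo. They were taken as every protein-coding gene on the chromosome arms whose symbol starts with mRpL or mRpS followed by a digit in the Ensembl annotation. This gave 73 of 13945 protein-coding genes. By the L or S in the symbol, 47 were counted for the large subunit and 26 for the small subunit. Chromatin immunoprecipitation and sequencing (ChIP-seq) was done with an anti-GFP antibody on whole embryos aged 0 to 8 h of the strain CG10959-GFP. These transgenic flies carry an eGFP-tagged CG10959, the promoter that drives it was not given in the labels, and every embryo in the series carries the tag. The 2 libraries are biological replicates of 1 group, so no difference between conditions could be tested, and the results below are counts and values. A promoter peak was a peak with its summit, the position of highest signal, within 500 bp of any transcription start site (TSS) of the gene in the authors' pooled, reproducibility-thresholded list of 3434 peaks, called the main list. By this rule 13 of the 73 genes (17.8%) had a promoter peak, against 11.3% of all protein-coding genes.

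Mitochondria keep their own small genome and translate its messenger RNAs on their own ribosomes. Most proteins of these ribosomes descend from bacterial ones, others exist only in mitochondria, and all of them in flies are encoded in the nucleus, made in the cytosol and imported. Nearly all products of mitochondrial translation are subunits of the oxidative phosphorylation complexes, so the ribosome's supply of proteins ties nuclear transcription to respiration. The 73 symbols leave out tko and bonsai, which encode the fly proteins S12 and S15 of the mitochondrial small subunit.

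The DNA under the summits of the strongest of these peaks was rich in A and T. Windows of 101 bp, the summit base with 50 bp on each side, were read from the RefSeq copy of the dm6 assembly on the strand of the mitochondrial ribosomal protein gene, 5′ to 3′. They are shown for 6 genes in order of peak signal (mRpL41, the third by signal, is not shown). These carry the base composition described below, and some of them carry the short motif. The window of mRpL11, chosen after its values were seen, follows because it differed. Capitals mark ATTTAA or its reverse complement TTAAAT, and in mRpL11 the letters CGATA, in each case where they lie in the window. The windows lie at 3R:15229484-15229584 (+) for mRpS10, 2L:13835405-13835505 (-) for mRpS23, 3L:2373563-2373663 (-) for mRpL23, 2L:4850543-4850643 (-) for mRpS2, 2L:4945453-4945553 (-) for mRpL24, 3L:13018074-13018174 (-) for mRpL20 and 3R:14511503-14511603 (+) for mRpL11.
mRpS10: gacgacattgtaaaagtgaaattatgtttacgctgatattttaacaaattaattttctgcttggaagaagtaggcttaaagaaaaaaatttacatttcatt
mRpS23: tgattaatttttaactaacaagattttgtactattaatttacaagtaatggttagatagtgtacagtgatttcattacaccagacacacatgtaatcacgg
mRpL23: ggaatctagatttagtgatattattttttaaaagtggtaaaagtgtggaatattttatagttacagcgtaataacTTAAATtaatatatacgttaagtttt
mRpS2: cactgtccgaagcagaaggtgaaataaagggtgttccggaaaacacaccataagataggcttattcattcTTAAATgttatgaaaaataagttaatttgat
mRpL24: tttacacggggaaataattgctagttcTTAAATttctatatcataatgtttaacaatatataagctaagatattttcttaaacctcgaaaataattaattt
mRpL20: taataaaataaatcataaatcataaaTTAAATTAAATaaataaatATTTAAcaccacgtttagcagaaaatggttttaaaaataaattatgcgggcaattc
mRpL11: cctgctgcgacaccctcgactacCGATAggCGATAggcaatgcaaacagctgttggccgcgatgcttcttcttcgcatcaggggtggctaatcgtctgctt
The windows of mRpS10 and mRpS23, under the strongest peaks of the 13, held no match to the 6 letters, that of mRpL20 held 3 overlapping or neighbouring matches, and those of mRpL23, mRpS2 and mRpL24 held 1 each.

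Signals of the 13 peaks spanned a wide range, and 4 of them stood among the strongest peaks of the whole list. The signal is the authors' own value for each peak relative to a control, on a scale that no source used here states. It is therefore compared only within a list. The median signal of the 13 peaks, each the strongest at its gene, was 214. Taken the same way over all protein-coding genes with a promoter peak, the median was 153. It was 143 for the 1219 main-list peaks at any protein-coding promoter and 125 for the whole main list. Of the 50 strongest main-list peaks, 35 lay at protein-coding promoters and 4 lay at these genes. In the authors' ranked list of all candidate peaks, the strongest 50 touched the promoters of 4 of the 73 genes (5.48%) and of 47 of all protein-coding genes (0.337%).

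The 2 strongest of the 13 peaks lay at promoters of small-subunit genes, though each summit was nearer to the start of a neighbour, named below. The gene for mRpS10 (FBgn0038307), a small-subunit protein with a counterpart in bacteria, had the fifth strongest peak of the main list, at 3R:15229376-15229696. Its pooled signal was 1643, with 823.1 in replicate 1, where it ranked 5, and 820.1 in replicate 2, where it ranked 7. The gene for mRpS23 (FBgn0260407), a protein found only in mitochondrial ribosomes, had a peak at 2L:13835312-13835605 with a pooled signal of 1378 and rank 12. It ranked 18 in replicate 1 (640.9) and 11 in replicate 2 (726.0). Each replicate taken alone thus placed these peaks among its 20 strongest.

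The large-subunit genes mRpL41 and mRpL23 followed. The peak of mRpL41 (FBgn0034001), a protein of mitochondrial ribosomes only, lay at 2R:15217606-15217892, had a pooled signal of 1202 and ranked 18, with 638.1 in replicate 1 and 599.1 in replicate 2. The peak of mRpL23 (FBgn0035335), whose bacterial counterpart sits at the exit of the peptide tunnel, lay at 3L:2373470-2373740 with a signal of 808.0 and rank 47. It had 400.4 in replicate 1 and 408.7 in replicate 2. Its summit lay in the 5′ UTR of mRpL23, 65 bp downstream of the nearest start, and it was the only one of the 13 summits downstream of the start. These 4 peaks were stronger than 97.4% or more of all promoter peaks.

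A gap separated them from the other 9. The small-subunit gene mRpS2 (FBgn0031639), at 2L:4850413-4850772, had a pooled signal of 254.9, with 144.1 in replicate 1 and 121.1 in replicate 2. The large-subunit gene mRpL24 (FBgn0031651), another protein of the tunnel exit in bacteria, had 254.4 at 2L:4945323-4945682, with 132.4 and 123.9. The gene for mRpL20 (FBgn0036335), whose counterpart in bacteria takes part in the assembly of the large subunit, had 214.4 at 3L:13018092-13018197, with 106.4 in replicate 1 and 113.5 in replicate 2. These 3 ranked 581, 582 and 762 in the main list, so they lay in its upper part but far below the first 4.

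Peaks near the middle of the list lay at promoters of mRpL34 and mRpL32, both of which have bacterial counterparts in the large subunit. The peak of mRpL34 (FBgn0083983) at 2R:16098529-16098888 had a signal of 138.0, with 69.53 in replicate 1 and 74.54 in replicate 2. The peak of mRpL32 (FBgn0039835) at 3R:31252587-31252946 had 126.7, with 63.00 and 55.84. A weak further main-list peak of signal 7.83 lay 95 bp downstream of the mRpL32 start, at 3R:31252787-31253146. These were stronger than 48.2% and 42.4% of promoter peaks.

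The last 4 peaks were stronger than 17.7% of all promoter peaks or fewer, and the replicates differed most there. The large-subunit gene mRpL18 (FBgn0026741), at 2R:12756249-12756608, had a signal of 92.25, with 48.79 in replicate 1 (rank 2695) and 38.14 in replicate 2 (rank 6490). The small-subunit gene mRpS22 (FBgn0039555), found only in mitochondrial ribosomes, had 78.88 at 3R:27916643-27917002, with 41.24 and 36.25. The gene for mRpL53 (FBgn0050481), of the large subunit of mitochondrial ribosomes only, had 78.34 at 2R:13953980-13954339. Its rank was 2251 in replicate 1 (53.69) and 19515 in replicate 2 (28.38). The gene for mRpL11 (FBgn0038234), whose bacterial counterpart belongs to the stalk base where translation factors bind, had 70.86 at 3R:14511373-14511732. It went the other way, with rank 19383 in replicate 1 (27.58) and 3374 in replicate 2 (46.51). At mRpL53 and mRpL11 both replicates thus had a candidate peak, but it ranked far higher in 1 replicate than in the other.

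**Figure D1:**
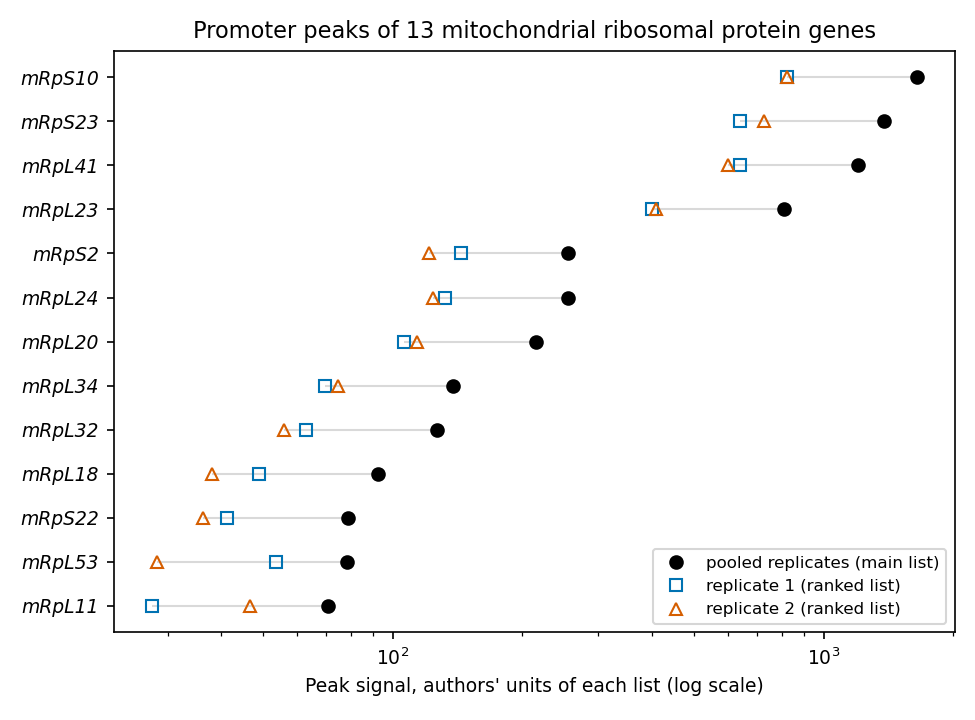
Signal of the 13 promoter peaks (x axis, log scale, authors' units, each list on its own scale) for each gene (y axis), in the pooled main list (filled circles) and in the ranked lists of replicate 1 (squares) and replicate 2 (triangles). The first 4 genes lie between 808.0 and 1643 in the pooled list and the other 9 between 70.86 and 254.9, and the replicate symbols lie farthest apart for mRpL53 and mRpL11.

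Each replicate's own thresholded list held most of these peaks. The list of replicate 1 (2065 peaks) gave a promoter peak to 9 of the 73 genes (12.3%), against 7.74% of all protein-coding genes. The list of replicate 2 (2341 peaks) gave one to 10 (13.7%), against 8.94%. The 9 strongest, from mRpS10 to mRpL32, were in both lists, mRpL11 was in that of replicate 2 only, and mRpL18, mRpS22 and mRpL53 were in neither. The authors' conservative pooled list held 10 (13.7%), against 10.5% of all genes, and left out mRpS22, mRpL53 and mRpL11. Summits in the replicates' ranked lists lay close to the pooled ones, with a median gap of 4.0 bp in replicate 1 and 9.0 bp in replicate 2 and a largest gap of 34 bp.

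The genes with a peak were spread over both subunits and over old and newer proteins, as read from the letter and number in the symbol. Of the large-subunit genes 9 of 47 (19.1%) had one, and of the small-subunit genes 4 of 26 (15.4%). Proteins with a bacterial counterpart accounted for 9 of 44 (20.5%) and mitochondrial-only proteins for 4 of 29 (13.8%). The highest share, 7 of 28 (25%), was that of large-subunit proteins with a bacterial counterpart, and the lowest, 2 of 19 (10.5%), that of large-subunit proteins found only in mitochondria. These counts are small and differ by a few genes. By arm, a peak was found at 3 of 12 genes on 2L (11.1% of all protein-coding genes there), 4 of 12 on 2R (10%), 2 of 17 on 3L (12.6%), 4 of 21 on 3R (12.2%) and 0 of 11 on X (10.2%).

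Of the 13 summits, 12, all except that at mRpL41, also lay within 500 bp of a start of another protein-coding gene, so these peaks cannot be assigned to the mitochondrial ribosomal protein gene alone. As a share this was 92.3%, against 35.7% of all main-list promoter peaks (435 of 1219). The units differ, since the 13 were reached through their genes and the 1219 were each counted once. A shared peak can be reached through more than 1 gene, so a share counted by gene would be higher over all genes. That share was not computed. In all 12 a neighbour was transcribed in the opposite direction, and in 11 the summit lay between the starts nearest to it. For mRpL11 this holds only for the farther start of HtrA2, since another start of HtrA2 lies 126 bp upstream of mRpL11, on the near side of the summit. By the starts nearest to the summit, the pairs were 20 to 492 bp apart (median 260 bp). In 7 pairs the summit was nearer to the neighbour's start. When each summit was given to its nearest gene only, 6 of the 73 genes had a peak, and their share relative to that of all protein-coding genes was 1.01 in place of 1.58.

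The neighbours have varied functions. The summit beside mRpS10 lay 131 bp upstream of its start and 126 bp upstream of Art3, which encodes an arginine methyltransferase. The one beside mRpS23 lay 383 bp upstream of mRpS23 and 109 bp upstream of CenG1A, which encodes a GTPase-activating protein for Arf. That beside mRpS2 lay 48 bp from Mon1, a factor that activates Rab7 on endosomes, and 174 bp from mRpS2. Partners concerned with the lipid modification of proteins stood beside mRpL24 and mRpL20. They were betaggt-I, the beta subunit of a protein prenyltransferase, 76 bp from its summit, and Icmt, the isoprenylcysteine carboxyl methyltransferase, 142 bp from its summit. Dystroglycan (Dg), a receptor for the extracellular matrix, lay 145 bp from the summit at mRpL34.

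Partners of 3 further genes work in mitochondria themselves. The start of qless, which acts in coenzyme Q synthesis, lay 159 bp from the summit at mRpL32. That of Taz, the cardiolipin-remodelling enzyme tafazzin, lay 15 bp from the summit at mRpL18, with only 20 bp between the paired starts. HtrA2, a mitochondrial protease, lay 93 bp from the summit at mRpL11, which was inside the 5′ UTR of HtrA2. The summit at mRpL53 lay 135 bp from a start of AGO1, the Argonaute protein that binds microRNAs. It also lay inside AGO1, whose other starts are on the far side of mRpL53, and CG33155 shares the start of mRpL53. The remaining partners were CG9004 beside mRpL23 and CG5003 beside mRpS22. For mRpL41 the start within 500 bp was that of a non-coding RNA, lncRNA:CR44463, 452 bp away, and its summit lay 126 bp upstream of mRpL41.

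**Figure D2:**
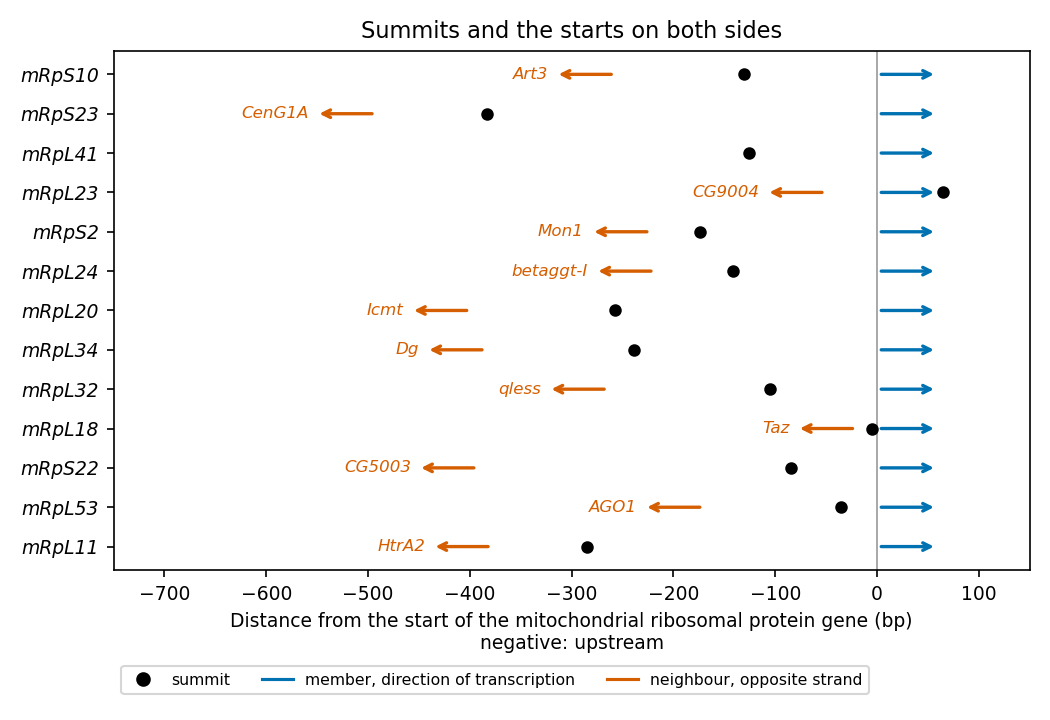
Position of the summit (filled circle) and of the opposite-strand neighbour's start nearest to it (origin of the orange arrow, which points in the direction of transcription) relative to the start of each mitochondrial ribosomal protein gene (blue arrow, at 0; x axis in bp, negative upstream; y axis, the 13 genes in order of signal). In 11 of the 12 pairs drawn the summit lies between the starts drawn. At mRpL23 it lies downstream of the mRpL23 start and upstream of the start of CG9004.

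Summits lay a median of 131 bp from the gene's own start (range 5 to 383 bp). Over all protein-coding genes with a promoter peak the median was 145 bp, with quartiles of 86.0 and 243 bp. The summit was upstream at 12 of 13 genes, and at 85.7% of all genes with a promoter peak. Position relative to the start therefore lay within the usual range for this map.

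Head-to-head arrangement was common in the family as a whole. A protein-coding start on the opposite strand within 1000 bp upstream was present for 58 of the 73 genes (79.5%), against 36.2% of all protein-coding genes and 61.5% of all genes with a promoter peak. All 13 genes with a peak had such a neighbour. Among the 58, 13 (22.4%) had a promoter peak, against 19.1% of all genes so arranged, a ratio of 1.17 in place of 1.58 over all genes. Among the 15 genes with no such neighbour the count was 0, against 6.79% of all genes without one. This split was made on arrangement alone, after the data were seen, and the genes were not matched on other features. The family's genes also have few starts. With 1 annotated TSS there were 67 genes (91.8%), against 73.5% of all genes, and 11 of these 67 (16.4%) had a promoter peak, against 8.33% of all genes with 1 TSS. Of the 6 with more than 1, 2 (33.3%) had a peak, against 19.4%. The part that promoter arrangement has in the count was not tested further.

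**Figure D3:**
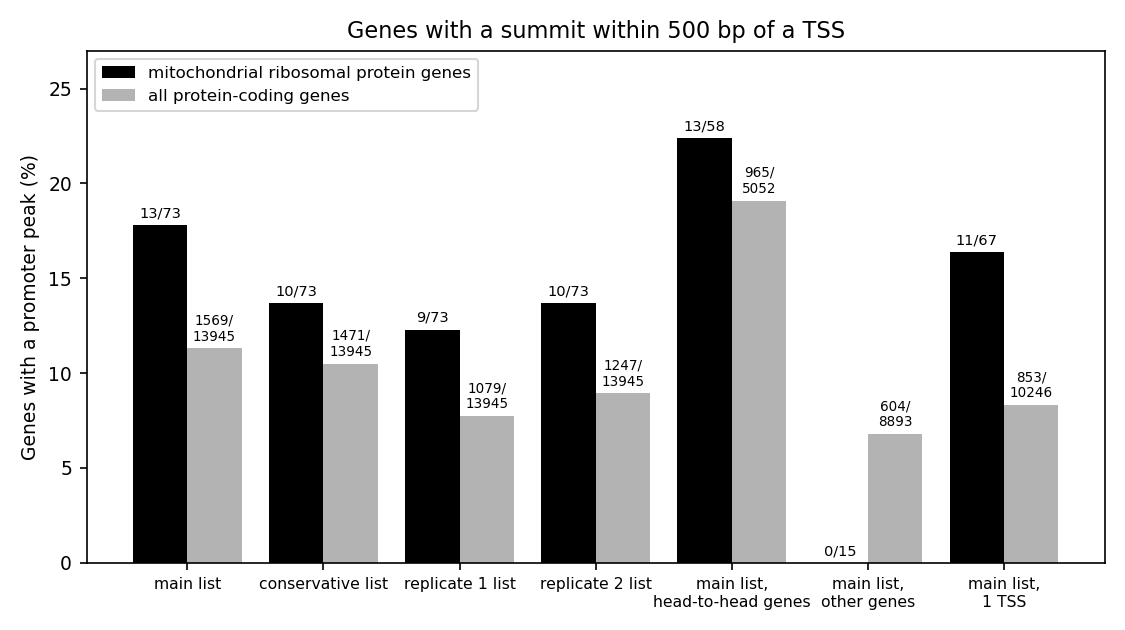
Percentage of the mitochondrial ribosomal protein genes (black bars) and of all protein-coding genes (grey bars) with a summit within 500 bp of a TSS (y axis), for each peak list and for the main list split by promoter arrangement or limited to genes with 1 TSS (x axis); numbers above the bars are genes with a peak over genes counted. The black bar stands at 17.8% against 11.3% in the main list, at 22.4% against 19.1% among head-to-head genes and at 16.4% against 8.33% among genes with 1 TSS, and it is 0 for the 15 genes with no head-to-head neighbour.

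The other 60 genes had no main-list promoter peak. Of these, 37 had a candidate peak at a promoter in the pooled ranked list of 144499 peaks, with signals of 8.88 to 81.0 and a median of 31.8. The authors' score, which reached at most 1000, was 617 or less for all 37 and at least 830 for every main-list peak. Highest in signal was mRpL4 (large subunit, with a bacterial counterpart), with a ranked signal of 81.0 and a score of 617, and with 29.5 in replicate 1 and 30.6 in replicate 2. Next came mRpS6 (78.1; score 559), with 36.8 and 41.6. The third, mRpS18B, had 76.3 and a score of 259, with no candidate peak in replicate 1 and 54.2 in replicate 2. Then came mRpS29, the fly counterpart of the GTP-binding death-associated protein 3, with 57.4 and a score of 377, and mRpL37 with 57.1 and a score of 233. The first 3 of these exceeded mRpL11 (70.86), the weakest inside the list, in signal but not in score.

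The remaining 32 of the 37, in order of falling signal, were mRpL47, mRpL51, mRpL12, mRpS26, mRpL42, mRpS14, mRpL45, mRpL35, mRpL48, mRpL46, mRpS7, mRpS21, mRpS30, mRpS9, mRpL1, mRpS28, mRpL40, mRpL17, mRpS35, mRpL22, mRpS17, mRpL27, mRpL54, mRpL50, mRpL2, mRpS18C, mRpL38, mRpL44, mRpS25, mRpS24, mRpL15 and mRpS11. A further 15 had a candidate promoter peak in a replicate's ranked list but not in the pooled one, namely mRpL3, mRpL9, mRpL10, mRpL14, mRpL16, mRpL19, mRpL21, mRpL28, mRpL30, mRpL36, mRpL39, mRpL52, mRpS16, mRpS31 and mRpS34. The highest of these was mRpL39, with 31.7 in replicate 2 and none in replicate 1. For 8 genes none of the 3 ranked lists had one, namely mRpL13, mRpL33, mRpL43, mRpL49, mRpL55, mRpS5, mRpS18A and mRpS33. No main-list summit lay within 1 kb of a start of any of the 60, and the nearest was 1275 bp from mRpL27. The median distance was 10956 bp.

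Candidate peaks as a whole were about as frequent at these genes as elsewhere, or less so. Any pooled ranked peak was found at 50 of 73 promoters (68.5%), against 78.1% of all protein-coding genes. In replicate 1 the count was 47 (64.4%), against 71.8%, and in replicate 2 it was 59 (80.8%), against 79.5%. As a ratio to the share of all genes, the family's lead was largest near the top of the ranked list, where it rested on few genes. The ratio was 16.3 at the strongest 50 peaks and 2.12 at the strongest 500. The family's share at the strongest 500 peaks was 5.48%, from the same 4 genes as at 50, against 2.59% of all genes. Of the peaks at these 4 genes, 3 were shared with another protein-coding gene, and the summits at mRpS10 and mRpS23 were nearer to that neighbour. Shares among head-to-head genes alone were not computed at these depths. Against all genes the family's lead then narrowed. At the strongest 1000 the family's share was 9.59% against 4.65%, at 5000 it was 20.5% against 14.0%, and by the strongest 20000 it was 28.8% (21 genes) against 28.2%. At 50000 it was below the background, at 41.1% against 48.4%.

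**Figure D4:**
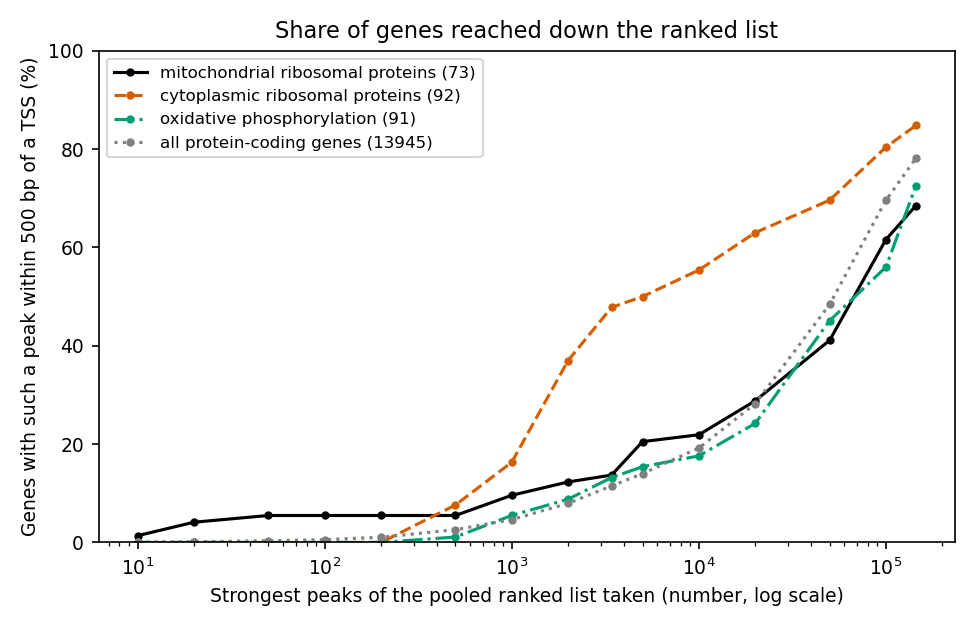
Share of genes with a summit within 500 bp of a TSS (y axis, %) when the strongest peaks of the pooled ranked list are taken in turn (x axis, number of peaks, log scale), for the mitochondrial ribosomal protein genes (black), the cytoplasmic ribosomal protein genes (orange), the oxidative phosphorylation genes (green) and all protein-coding genes (grey). The black line leads at the strongest 200 peaks, at 5.48%, where the orange line is at 0, and meets the grey line at 20000 peaks.

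The cytoplasmic ribosomal protein genes showed another pattern. Of 92, 41 (44.6%) had a main-list promoter peak, but none was among the strongest 50, and their highest signal was 447.1, at RpS27, below the first 4 of the mitochondrial family. The median of their peaks was 164. Other genes of mitochondrial gene expression form short lists, in which the 11.3% of all genes would amount to few peaks. None of 15 mitochondrial aminoacyl-tRNA synthetases, none of 9 mitochondrial translation factors and neither tko nor bonsai had a main-list promoter peak. Of 14 genes for transcription and maintenance of the mitochondrial genome 2 (14.3%) had one. They were SLIRP2, with 861.8 and rank 40 at a promoter shared with Mkk4, and mtSSB, the mitochondrial single-stranded DNA-binding protein, with 401.4. Of 91 oxidative phosphorylation genes, whose complexes take up the ribosome's products, 10 (11.0%) had one, close to the background, with a median of 190 and a highest signal of 287.5 at ND-ASHI. Of 15 import genes Tom7 alone had one, with 79.64.

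Base composition differed between most summits and their flanks, which were not matched to the summits for lying inside or between genes. The windows at the 13 summits had a mean GC content of 31.4% (median 25.7%, range 18.8% to 56.4%), and windows of the same length 300 bp to either side had 46.2%. For all main-list promoter peaks the means were 36.4% and 44.1%, and for the 50 strongest promoter peaks outside the family the summit mean was 31.0%, close to the family's. Summit windows had less GC than their flanks in 11 of 13 cases, against 69.7% of promoter peaks. The window at mRpL20 had the lowest value, 18.8%, with an unbroken run of A and T of 30 bp. The windows at mRpL23 and mRpL24 had 21.8% each, against 53.0% and 47.0% in their flanks. At mRpS22 the values were 24.8% and 56.9%. The exceptions were mRpL53 (55.4% against 49.0%) and mRpL11 (56.4% against 41.1%), which were also the peaks whose ranks differed most between the replicates. Low GC was not limited to genes with a peak. Windows of the same length centred 100 bp before the start averaged 30.2% in the 13 genes, 30.9% in the 60 without a peak and 37.6% in all protein-coding genes.

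**Figure D5:**
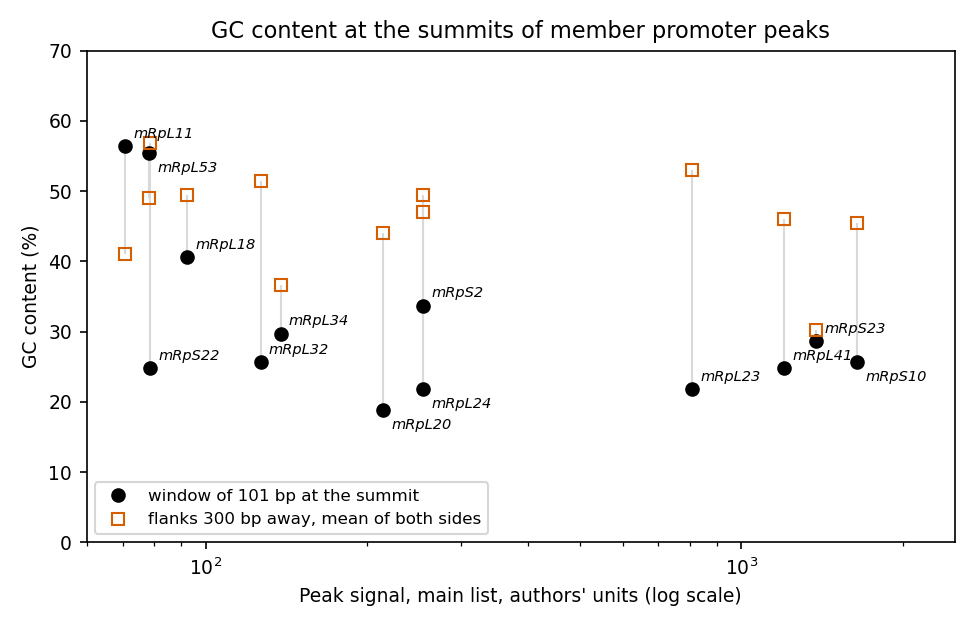
GC content (y axis, %) of the 101 bp at each summit (filled circles) and of flanks 300 bp away (open squares, mean of both sides) against the main-list signal of the peak (x axis, log scale, authors' units) for the 13 genes. Summit values lie below the flank values except at mRpL11 and mRpL53, which are at the low end of signal.

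The 6 letters ATTTAA were chosen after letters under the strongest peaks had been seen, as the hexamer most over-represented at the summits of 496 strong peaks outside this family (40.1%, against 10.9% of their flanks). Searched on both strands, they were found in 6 of the 13 windows (46.2%), those of mRpL23, mRpS2, mRpL24, mRpL20, mRpL34 and mRpS22. They were present in 29.0% of all promoter-peak windows, in 13.1% of the flanks of those windows and in 24.9% of windows centred before the starts of all genes. In promoters of 300 bp, from 250 bp before the start to 50 bp after it, they were found in 69.2% of the 13 genes with a peak, 65.0% of the 60 without and 48.9% of all genes. Their presence in the promoter thus barely separated genes with a peak from those without one.

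Letters bound by known promoter factors of the fly were also counted, on both strands. CGATA, the core of the BEAF-32 insulator site, lay in the windows of mRpL34, mRpL53 and mRpL11 (23.1%), against 18.0% of promoter-peak windows and 20.4% of windows before all starts. The window of mRpL11 printed above holds 2 matches. TTCTTT, a polypyrimidine sequence, lay in 2 of the 13 windows (15.4%), against 14.2% of promoter-peak windows. TATCGATA, the DNA replication-related element (DRE), which contains CGATA, was in none of the 13 windows and in 2.30% of promoter-peak windows. In 300 bp promoters it was in 3 of the 13 genes with a peak, 12 of the 60 without and 9.36% of all genes. GGTCACAC (M1BP), GAGAG (GAGA factor), CAGGTA (Zelda) and GCATGCGC were in none of the 13 windows, against 1.07%, 10.7%, 1.56% and 0.246% of promoter-peak windows. Absence says only that these letters are not in these windows.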

How the data were processed

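Peak lists from ChIP-seq of CG10959-eGFP embryos were used as deposited. Per the labels, coordinates are on dm6 and chromatin was sonicated to 200 to 800 bp. The aligner and the peak caller were not given in the sources used here. Controls were not analysed here. The authors deposited a ranked and a thresholded list of each replicate and of both pooled, and a conservative pooled list. Each peak has a signal deposited by the authors, its strength relative to a control, and a score deposited by the authors. Whether this score compares the 2 replicates was not established here. It can differ between lists, and the peak at mRpL18 had 958 in the main list and 866 in the conservative list. The summit was taken from the deposited offset. In the pooled ranked lists 16 columns of per-sample values were not used, since no label ties them to a replicate. No counts were used, so depth is unknown and no counting interval can be given.

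Summits on the chromosome arms (3417 of 3434) were placed on Ensembl release 115 of the same assembly, with every TSS of a gene counted. Coordinates are 1-based. Sequences came from the RefSeq copy of dm6, whose arms hold every annotated gene within their lengths. Replicate values are those of the strongest ranked peak that overlaps the pooled peak by at least 1 bp, or, for genes outside the main list, of the strongest candidate within 500 bp of a TSS.

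The members, gene lists, motifs and alternatives were chosen with earlier results of these data known. Every gene with a main-list peak was named, with its neighbours, as were the 5 without one that had the highest ranked signal and the top 3 of each comparison list at most. Subunits were read from the L or S in the symbol. Proteins were called bacterial by their number (mRpL up to 36, mRpS up to 21, with mRpS24 and mRpS28). Neither label was checked against an annotation of the proteins. The assignment of summits to starts was checked on simulated data with a seed of 1. Python 3.11.15, numpy 2.4.6, pandas 2.3.3 and matplotlib 3.10.9 were used.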

Additional observations from a re-analysis of the deposited data

How the results depend on the processing

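The count of 13 genes stayed within 1.5 times under most alternatives and fell to 4 with the strongest 500 peaks, and to 6 when each summit was given to its nearest gene only, which took away mRpS10, mRpS23, mRpS2, mRpL24, mRpL20, mRpL34 and mRpL11. With either replicate's list alone it was 9 to 10. Summits within 200 bp left 9 genes, without mRpL11, mRpL20, mRpL34 and mRpS23. The share of all genes was 7.74% to 8.94% with 1 replicate's list, 6.43% for peaks in both replicates' lists and 2.60% for the strongest 500 main-list peaks. The family's share relative to all genes (1.58) was 1.30 in the conservative list, 1.53 to 1.59 with 1 replicate's list, 1.92 for peaks in both lists, 2.10 for the strongest 500, 1.30 within 1000 bp, 1.47 with any base of the peak, 1.85 with the outermost start and 1.01 with the nearest gene only. Added after the data were seen, it was 1.17 among head-to-head genes and 1.97 among genes with 1 TSS. The peaks' median signal, above 77.7% of the main list, stood at 81.7% in the conservative list, 73.7% to 76.5% with 1 replicate, 64.1% for peaks in both lists, 97.0% in the strongest 500 and 83.0% within 200 bp. Peaks shared with a neighbour (12) numbered 3 in the strongest 500, 7 within 200 bp and 8 to 9 with 1 replicate. Except where the rule leaves fewer peaks or genes by construction, the cause was not tested.

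No paired analysis was possible because both libraries belong to 1 group. With 2 libraries and unknown depth, the peaks of mRpL18, mRpS22 and mRpL53, in neither replicate's own list, and of mRpL11, in 1 of them, are the least certain.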

Other observations

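Apart from the peaks, the family's promoters shared the palindrome CAGCTG, an E-box of 6 letters that reads alike on both strands. It lay in the 300 bp promoters of 40 of the 73 genes (54.8%), 8 of the 13 with a main-list peak (61.5%) and 32 of the 60 without (53.3%), against 17.7% of all protein-coding genes. The share was 9.78% of the cytoplasmic ribosomal protein genes (9 of 92) and 23.1% of the oxidative phosphorylation genes (21 of 91). In the 40 genes its position nearest the start had a median of 4.0 bp downstream, with quartiles of -17.8 and 16.0 bp, and in 35 of 40 (87.5%) it lay within 50 bp of the start, against 52.7% of all genes that hold the letters. In 5 genes the letters occurred 2 times or more. At the summits themselves they were in 1 of 13 windows, that of mRpL11, and in 5.74% of all promoter-peak windows. The presence of the letters is a description of these promoters and says nothing of what binds them.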
